A study of Mus musculus with 4 samples.

Results

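ATP-binding cassette (ABC) genes were described in CD301b macrophages and in F4/80-negative immune cells sorted from mouse wound beds. All transcripts whose gene symbol begins with Abc, a subfamily letter from a to g and a digit were taken, which gave 50 of the 24358 genes and 65 of the 34535 transcripts in the authors' deposited table. The choice of genes used symbols alone, though earlier results of these data were known when the family was picked. CD301b macrophages are wound macrophages that carry the C-type lectin CD301b, and F4/80-negative immune cells lack the surface protein F4/80 that marks mouse macrophages. Both came from the dermis of wounds on day 5 in male C57/Bl6 mice aged 7 weeks, were sorted by flow cytometry (FACS), and were represented by 2 libraries each. No wound macrophages lacking CD301b were included, and the labels do not say whether libraries came from separate or pooled animals.

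ABC proteins bind and hydrolyse ATP through a conserved nucleotide-binding domain, and most of them use that energy to move lipids, drugs, conjugates, peptides or haem-related compounds across membranes. The ABCE and ABCF proteins keep the ATPase domain but span no membrane and act on ribosomes. In macrophages the family is best known for Abca1 and Abcg1, which pass cholesterol to apolipoproteins and high-density lipoprotein and are induced by liver X receptors when sterols accumulate.

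The table gives 1 FPKM value (fragments normalised to transcript length and to the number of mapped fragments) for each transcript and population. No value per library is given, so no FPKM carries an error, and read depth is unknown. Levels of a gene are the sum of FPKM over its transcripts. FPKM is a per-length scale, so levels of different genes can be set side by side, but only roughly. Sequence shared between genes, given below for some of them, also affects these levels. A call of higher or lower needed at least 1 transcript at an adjusted p of 0.05 or less, no transcript past it with the opposite sign, and a summed FPKM that moved with it. The adjusted p is the Benjamini-Hochberg adjustment, over all 16921 tested transcripts, of p-values that Cuffdiff gave in the authors' deposited table. In these bulk samples, fewer cells of a type and less RNA per cell cannot be told apart.

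The sort was followed by the transcript of F4/80 but not by that of CD301b. Adgre1, which encodes F4/80, stood at 557 FPKM in CD301b macrophages and 151 FPKM in F4/80-negative cells. Mgl2, which encodes CD301b, was lower in the cells sorted for it, at 49.2 FPKM in CD301b macrophages and 103 FPKM in F4/80-negative cells. Of 10 macrophage markers, 9 were called higher in CD301b macrophages, and the summed level of the 10 was 8079 FPKM there and 3155 FPKM in F4/80-negative cells. Of all 13039 tested genes in the table, 11.0% were called higher and 6.20% lower. Dendritic cell markers were called lower in 6 of 8 cases, with a summed level of 58.2 FPKM in CD301b macrophages and 232 FPKM in F4/80-negative cells. Mast cell markers were called lower in 5 of 6 cases (19.7 FPKM in CD301b macrophages, 56.2 FPKM in F4/80-negative cells). Neutrophil markers were called lower in 3 of 5 tested cases. The 7 found in the table summed to 2175 FPKM in CD301b macrophages and 3918 FPKM in F4/80-negative cells, mostly from S100a8 and S100a9. Of the neutrophil receptors, Csf3r was among the genes called lower, although its summed levels were close. It had 68.1 FPKM in CD301b macrophages and 71.3 FPKM in F4/80-negative cells, a ratio of 0.956. Cxcr2 was not past the threshold and had the higher value in CD301b macrophages, at 27.3 FPKM there and 25.7 FPKM in F4/80-negative cells. Fibroblast markers were called lower in 2 of 7 cases (4240 FPKM in CD301b macrophages, 6275 FPKM in F4/80-negative cells). Keratinocyte markers were called lower in 1 of 8 cases (142 FPKM in CD301b macrophages, 177 FPKM in F4/80-negative cells). T and natural killer cell markers were near 0 in both (5.62 FPKM over 6 genes in CD301b macrophages and 5.86 FPKM in F4/80-negative cells). None of the 3 tested was called. Among all these markers Elane alone was at 0 in both populations. The part of these other cells in the ABC results was not tested.

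ABC genes were called higher in CD301b macrophages more often than lower. Of the 50 genes, 33 had a tested transcript, and of these 10 were called higher (30.3%; 11.0% of the 13039 tested genes in the table were), 1 was called lower (3.03%; 6.20% in the table) and 22 were not past the threshold. Among the higher genes were Abca1, Abca3, Abca9, Abcc1, Abcc3, Abcd2, Abcd3 and Abcg3, and the lower gene was Abcb4. The median log2(FPKM + 1) difference, CD301b macrophages minus F4/80-negative cells, was 0.21 over the 33 tested ABC genes and 0.05 over all tested genes. Over all 50 ABC genes, tested or not, the median was 0.01, and over all genes in the table it was 0.00. Whether a transcript was tested depends on its level, so the count over tested genes is not a count over the family.

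The values are dominated by a few genes. Summed over the family, ABC transcripts came to 532 FPKM in CD301b macrophages and 324 FPKM in F4/80-negative cells, a ratio of 1.64, while all transcripts in the table had a ratio of 1.06. Abca1, Abca9 and Abcc3 made up 69.8% of that ABC difference. Abca1 alone was 24.1% of summed ABC FPKM in CD301b macrophages and 17.4% in F4/80-negative cells. In all, 14 ABC genes reached 10 FPKM in either population, 30 reached 1 FPKM, and 20 stayed under 1 FPKM in both. The median gene expressed at 1 FPKM or more in both populations was itself 0.11 higher on the log2 scale in CD301b macrophages, at 10.3 FPKM there and 9.56 FPKM in F4/80-negative cells, and ratios divided by this shift are given as scaled.

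**Figure D1:**
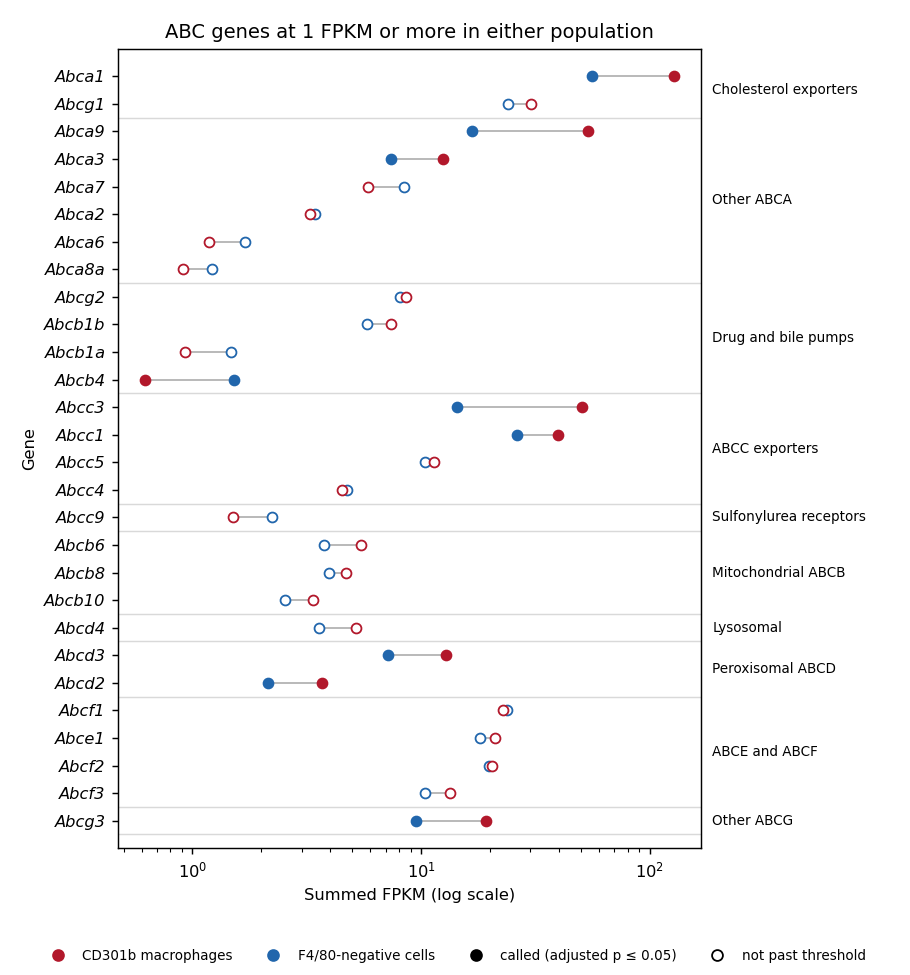
Summed FPKM (log axis) of 28 of the 30 ABC genes at 1 FPKM or more in either population, grouped by role, in CD301b macrophages (red) and F4/80-negative cells (blue), with 1 value per population and no error; filled points are called genes. The red point lies right of the blue one in 8 of the 9 called genes drawn, and Abcb4 is the exception.

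The cholesterol exporters differed in their calls. Abca1 (NCBI gene 11303, chromosome 4, 53030789 to 53159988, GRCm38), which loads cholesterol and phospholipid onto lipid-poor apolipoproteins, had 128 FPKM in CD301b macrophages and 56.2 FPKM in F4/80-negative cells. It was the most abundant of the 50 genes in both populations and stood above 97.5% of all genes in CD301b macrophages and above 94.5% in F4/80-negative cells. Its ratio was 2.28 (2.11 scaled), and the adjusted p was 0.000999, the smallest that can be had from the authors' deposited table. Abcg1 (NCBI gene 11307, chromosome 17, 31057694 to 31117984), which promotes efflux to high-density lipoprotein, had 30.3 FPKM in CD301b macrophages and 23.9 FPKM in F4/80-negative cells. Its ratio of 1.27 (1.17 scaled) was not past the threshold, at an adjusted p of 0.269 computed from the p in the authors' deposited table. Whether the ratios of Abca1 and Abcg1 differ from each other was not tested.

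The promoters of Abca1 and of Abca9, another lipid transporter gene, are shown because they were the pair of ABCA genes with the highest levels and both were called higher in CD301b macrophages. They are 300-base windows, from 250 bases before to 50 bases after the start, from RefSeq on GRCm38.p6, and 38 of the 50 members had such an entry. For Abca1 and Abca9 the start used lies inside the gene span printed in this report, not at its edge. Motif distances are counted from the start used. Abca1 is at chr4:53159846-53160145 and Abca9 at chr11:110168104-110168403, both on the minus strand and printed in the direction of transcription. Capitals mark matches to 4 motifs searched on both strands, which do not overlap here. They are the E-box CACGTG, the TATA box TATAAA, the PU.1 core GAGGAA and a direct repeat. The repeat is the half-sites GGTTA and GGTCA separated by any 5 bases, a shortened form of the DR4-type repeat that liver X receptors bind. Its half-sites are written without their first letter. The 5 bases therefore hold the 4-base spacer and the first letter of the second half-site. This last pattern was written with the known Abca1 element and its sequence in view.
Abca1: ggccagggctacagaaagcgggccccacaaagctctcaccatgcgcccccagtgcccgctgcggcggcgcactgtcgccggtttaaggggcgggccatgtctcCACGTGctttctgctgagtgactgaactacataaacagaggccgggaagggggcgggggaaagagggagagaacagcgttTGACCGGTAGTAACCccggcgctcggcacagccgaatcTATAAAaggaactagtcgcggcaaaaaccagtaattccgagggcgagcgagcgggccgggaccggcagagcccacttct
Abca9: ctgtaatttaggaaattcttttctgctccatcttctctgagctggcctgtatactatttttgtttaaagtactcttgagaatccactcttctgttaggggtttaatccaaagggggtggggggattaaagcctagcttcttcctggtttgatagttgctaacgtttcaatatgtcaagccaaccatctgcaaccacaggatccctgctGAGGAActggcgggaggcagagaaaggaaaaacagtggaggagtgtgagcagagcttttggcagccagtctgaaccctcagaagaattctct

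The Abca1 window held the direct repeat, on the reverse strand from 67 bases before the start, the E-box from 147 bases before it and the TATA box from 29 bases before it. The Abca9 window held 1 PU.1 core, from 42 bases before the start. Among all 32851 promoter windows of the same length, 0.0487% held the direct repeat (16 windows), 7.15% the E-box, 13.6% the TATA box and 28.3% the PU.1 core. These matches describe the letters only.

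Other genes of sterol handling showed more calls in the same direction. Of 27 genes of sterol uptake, storage and efflux, 26 were tested, 8 were called higher in CD301b macrophages (30.8%, against 11.0% of all tested genes), none was called lower and 18 were not past the threshold. Their median log2(FPKM + 1) difference was 0.35. This list, too, was drawn up with earlier results of these data known. The regulators among the higher genes were Nr1h3, which encodes liver X receptor alpha (16.2 FPKM in CD301b macrophages, 9.62 FPKM in F4/80-negative cells), and Rxra, its retinoid X receptor partner (20.7 FPKM in CD301b macrophages, 8.48 FPKM in F4/80-negative cells). Mylip, a liver X receptor target that limits lipoprotein uptake, had 57.7 FPKM in CD301b macrophages and 33.3 FPKM in F4/80-negative cells.

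Apoe and Pltp had the largest levels of the list in CD301b macrophages. Apoe, an apolipoprotein that accepts cholesterol from Abca1, had 7115 FPKM in CD301b macrophages and 2217 FPKM in F4/80-negative cells. Pltp, the phospholipid transfer protein, had 810 FPKM in CD301b macrophages and 261 FPKM in F4/80-negative cells, a ratio of 3.10. Npc1, which releases cholesterol from lysosomes, had 71.2 FPKM in CD301b macrophages and 43.1 FPKM in F4/80-negative cells, and Nceh1, a cholesteryl ester hydrolase, had 47.8 FPKM in CD301b macrophages and 24.3 FPKM in F4/80-negative cells. Cd36, a scavenger receptor that takes up oxidised lipoprotein, had 143 FPKM in CD301b macrophages and 82.2 FPKM in F4/80-negative cells. All 8 genes passed after adjustment of the authors' deposited p-values.

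Genes that were not past the threshold included both directions. Among them were the other liver X and retinoid X receptor genes of the list, Nr1h2 and Rxrb. Nr1h2 had 21.7 FPKM in CD301b macrophages and 21.6 FPKM in F4/80-negative cells. Rxrb had 17.7 FPKM in CD301b macrophages and 14.9 FPKM in F4/80-negative cells. Srebf2, the factor that drives sterol production genes, had 13.9 FPKM in CD301b macrophages and 17.7 FPKM in F4/80-negative cells. Srebf1, a lipogenic factor that liver X receptors induce, had 7.98 FPKM in CD301b macrophages and 7.39 FPKM in F4/80-negative cells. Lipa, the lysosomal acid lipase, had 266 FPKM in CD301b macrophages and 119 FPKM in F4/80-negative cells, with a smallest adjusted p of 0.131 among its 2 transcripts, computed from the p in the authors' deposited table. Apoa1, the main apolipoprotein partner of Abca1 in plasma, was nearly absent at 0.0270 FPKM in CD301b macrophages and 0.0757 FPKM in F4/80-negative cells and was not tested.

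**Figure D2:**
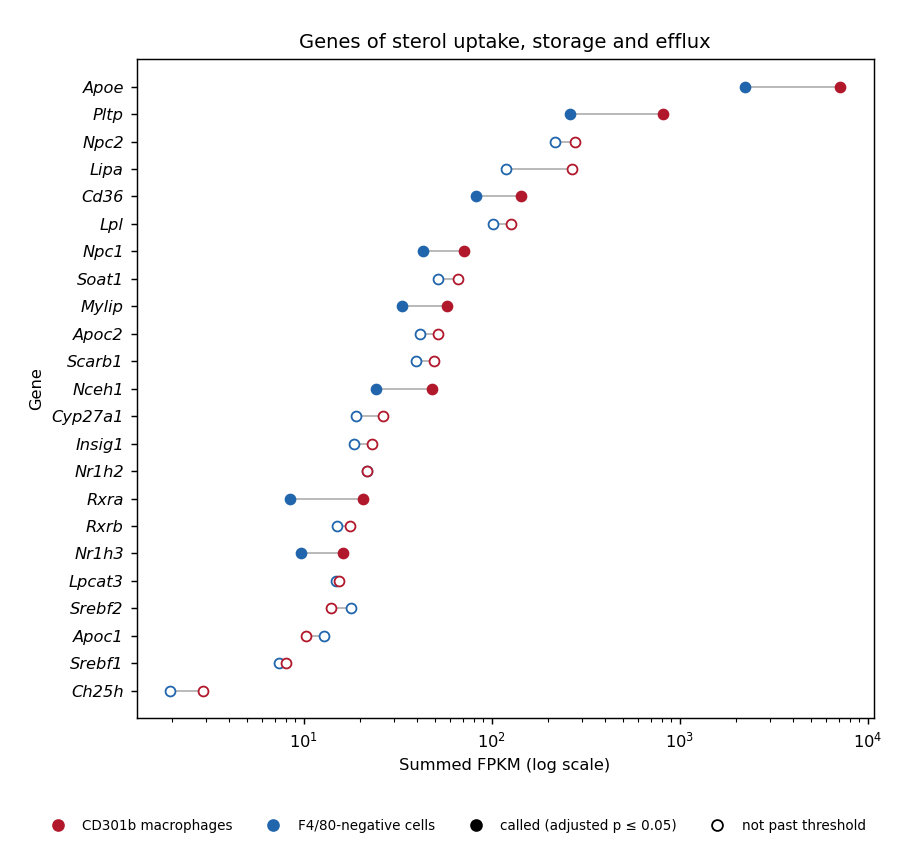
Summed FPKM (log axis) of 23 of the 27 sterol handling genes in CD301b macrophages (red) and F4/80-negative cells (blue), 1 value per population with no error; filled points are called genes, and the genes left out include Apoa1 and Apoc4, near 0 or at 0 in a population. All 8 called genes have their red point to the right, from Apoe (7115 FPKM in CD301b macrophages, 2217 FPKM in F4/80-negative cells) down to Nr1h3 (16.2 FPKM in CD301b macrophages, 9.62 FPKM in F4/80-negative cells).

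Among the other ABCA genes, Abca9 stood apart from its chromosomal neighbours. Abca9 (NCBI gene 217262, chromosome 11, 110100749 to 110168274), a lipid transporter gene of unclear function whose human counterpart is induced as monocytes become macrophages, had 53.9 FPKM in CD301b macrophages and 16.7 FPKM in F4/80-negative cells. This was a ratio of 3.23 (2.99 scaled), with the smallest adjusted p that can be computed from the authors' deposited table. It lies in a row of 5 related genes, separated by gaps of 3.17 to 29.4 kb, in which no other member was called. Abca8b had 0.266 FPKM in CD301b macrophages and 0.327 FPKM in F4/80-negative cells, and Abca8a had 0.910 FPKM in CD301b macrophages and 1.22 FPKM in F4/80-negative cells. On the other side, Abca6 had 1.18 FPKM in CD301b macrophages and 1.69 FPKM in F4/80-negative cells, and Abca5, which encodes a lysosomal protein, had 0.523 FPKM in CD301b macrophages and 0.747 FPKM in F4/80-negative cells. All 4 neighbours had the lower value in CD301b macrophages, and Abca9 the higher. Sequence sharing was small: 0.205% of the 50-base words of the Abca9 transcript occur in another gene, Abca6.

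**Figure D3:**
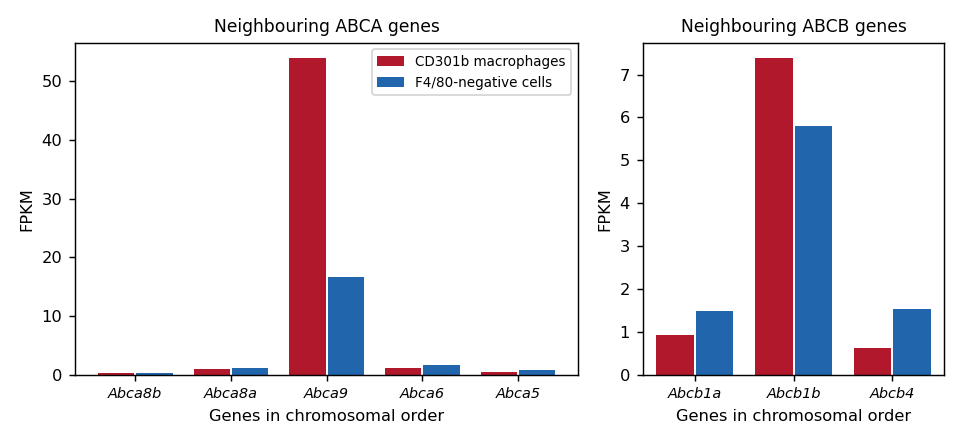
FPKM (linear axis from 0) of neighbouring ABCA genes (left) and ABCB genes (right), in chromosomal order, in CD301b macrophages (red) and F4/80-negative cells (blue), 1 value per population with no error. In the ABCA row Abca9 reaches 53.9 FPKM in CD301b macrophages and 16.7 FPKM in F4/80-negative cells while its neighbours stay under 2 FPKM, and in the ABCB row the middle gene, Abcb1b, is the highest.

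Abca3 was the remaining ABCA gene called higher, and the call rested on 1 of its 2 transcripts. Abca3 (NCBI gene 27410, chromosome 17, 24351921 to 24410204), which loads surfactant lipid into lamellar bodies in lung, summed to 12.5 FPKM in CD301b macrophages and 7.38 FPKM in F4/80-negative cells, a ratio of 1.69 (1.57 scaled). Transcript NM_013855 had 5.07 FPKM in CD301b macrophages and 2.17 FPKM in F4/80-negative cells, with an adjusted p of 0.0309 computed from the p in the authors' deposited table. The more abundant NM_001039581 had 7.43 FPKM in CD301b macrophages and 5.21 FPKM in F4/80-negative cells, and its adjusted p of 0.254, computed from the same deposited table, was not past the threshold. The exons of Abca3 share 914 bases with D330041H03Rik on the opposite strand (10.5 FPKM in CD301b macrophages, 8.08 FPKM in F4/80-negative cells), and without a stated strand setting their reads cannot be told apart there. Its neighbour Abca17 was at 0.00941 FPKM in CD301b macrophages and 0.0109 FPKM in F4/80-negative cells.

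Abca7, a phospholipid transporter linked to phagocytosis, had the lower value in CD301b macrophages, at 5.85 FPKM there and 8.43 FPKM in F4/80-negative cells. Its adjusted p, 0.156 when computed from the authors' deposited table, was not past the threshold. Abca2, an endosomal and lysosomal lipid transporter, had 3.25 FPKM in CD301b macrophages and 3.45 FPKM in F4/80-negative cells. Abca12, which packs lipid for the skin barrier in keratinocytes, was at 0.0650 FPKM in CD301b macrophages and 0.0651 FPKM in F4/80-negative cells. Keratinocyte markers ranged widely in level. Krt14, a keratin of basal keratinocytes, reached 61.7 FPKM in CD301b macrophages and 78.1 FPKM in F4/80-negative cells. Lor had 0.354 FPKM in CD301b macrophages and 0.748 FPKM in F4/80-negative cells.

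Of the ABCC exporters, Abcc3 and Abcc1 were called higher. Abcc3 (NCBI gene 76408, chromosome 11, 94343295 to 94393017), which encodes MRP3, an exporter of glucuronides and bile acids, had 50.5 FPKM in CD301b macrophages and 14.3 FPKM in F4/80-negative cells. Its ratio of 3.53 (3.26 scaled) was the largest of the 11 called ABC genes, with the smallest adjusted p that can be computed from the authors' deposited table. Abcc1 (NCBI gene 17250, chromosome 16, 14361453 to 14474878), which encodes MRP1, the exporter of leukotriene C4 and glutathione conjugates, had 39.5 FPKM in CD301b macrophages and 26.2 FPKM in F4/80-negative cells. For that ratio of 1.51 (1.40 scaled) the adjusted p, computed from the p in the authors' deposited table, was 0.0282.

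Abcc5, Abcc4 and Abcc10 had nearly equal values in both populations. Abcc5, an exporter of cyclic nucleotides, had 11.4 FPKM in CD301b macrophages and 10.4 FPKM in F4/80-negative cells. Abcc4, which exports cyclic nucleotides and prostaglandins, had 4.51 FPKM in CD301b macrophages and 4.75 FPKM in F4/80-negative cells. Abcc10 had 0.738 FPKM in CD301b macrophages and 0.642 FPKM in F4/80-negative cells. None of the 3 was past the threshold in any tested transcript. Abcc9, the sulfonylurea receptor subunit of potassium channels in vascular muscle and pericytes, had 1.50 FPKM in CD301b macrophages and 2.22 FPKM in F4/80-negative cells (adjusted p of 0.156, computed from the p in the authors' deposited table).

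**Figure D4:**
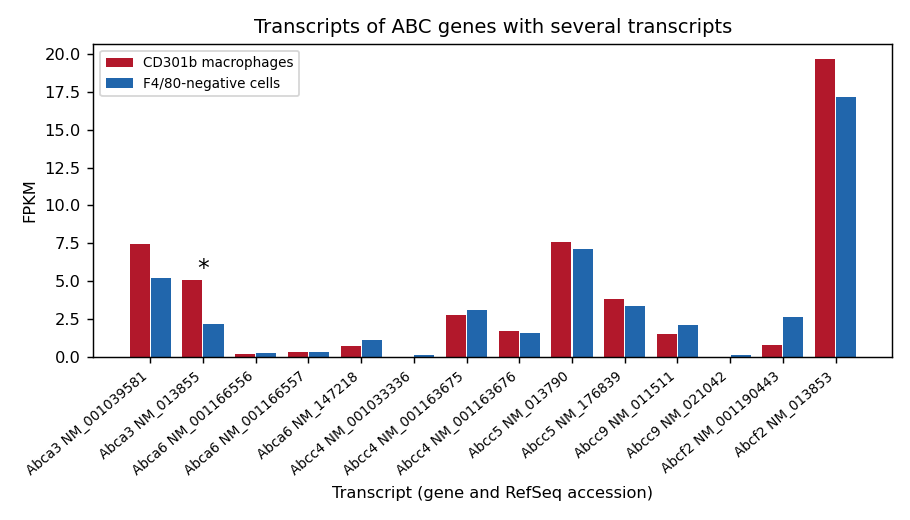
FPKM (linear axis from 0) of single transcripts at 0.05 FPKM or more of the ABC genes with several transcripts and at least 1 FPKM in one of them, in CD301b macrophages (red) and F4/80-negative cells (blue), with no error; the asterisk marks a transcript called in the authors' deposited table. Transcript NM_013855 of Abca3, at 5.07 FPKM in CD301b macrophages and 2.17 FPKM in F4/80-negative cells, is the one marked.

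The drug and bile pumps held the single gene that was lower in CD301b macrophages. Abcb4 (NCBI gene 18670, chromosome 5, 8893614 to 8959226), which moves phosphatidylcholine into bile, had 0.619 FPKM in CD301b macrophages and 1.53 FPKM in F4/80-negative cells. It was 2.46-fold lower, and the ratio of 0.406 became 0.641 with a pseudocount of 1. Its adjusted p was 0.00258 (computed from the p in the authors' deposited table). Markers of other cells were also called lower, in 6 of 8 dendritic cell, 5 of 6 mast cell and 3 of 5 tested neutrophil genes. The same held for 2 of 7 fibroblast and 1 of 8 keratinocyte genes. None of the 3 tested T and natural killer cell genes was called lower, and 6.20% of all tested genes in the table were. The part of these cells in the Abcb4 value was not tested. The neighbours of Abcb4 are the P-glycoprotein genes. Abcb1b had 7.37 FPKM in CD301b macrophages and 5.80 FPKM in F4/80-negative cells (adjusted p of 0.304, computed from the p in the authors' deposited table), and Abcb1a had 0.927 FPKM in CD301b macrophages and 1.48 FPKM in F4/80-negative cells (adjusted p of 0.0793, computed from the p in the same deposited table).

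The nucleotide-binding domain that defines the family is in part identical between these neighbours, and 2 stretches of it are shown because reads from them could belong to either gene. The longest identical stretch of the Abcb1a and Abcb1b coding sequences was 338 bases. Part of it follows, from coding bases 1525 to 1647 of Abcb1a and 1534 to 1656 of Abcb1b, with the codons of the ABC signature motif in capitals. The second stretch lies in the longest run shared by Abcb1a and Abcb4 (110 bases), at coding bases 3154 to 3248 of both, with the codons of the ATP-binding Walker A motif in capitals. Both were read from GENCODE M21 transcripts (GRCm38), 5′ to 3′.
Abcb1a and Abcb1b: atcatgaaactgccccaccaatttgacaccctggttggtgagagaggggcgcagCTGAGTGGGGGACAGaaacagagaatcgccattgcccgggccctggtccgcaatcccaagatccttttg
Abcb1a and Abcb4: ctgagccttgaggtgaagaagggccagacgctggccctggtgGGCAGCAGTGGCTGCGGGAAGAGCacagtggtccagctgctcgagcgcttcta

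Neither P-glycoprotein gene was past the threshold, and their values lay on opposite sides. Of the 50-base words of the Abcb1b transcript 18.0% also occur in Abcb1a, and of those of Abcb4 3.15% do, so part of the reads of Abcb1a and Abcb1b have no certain origin. Abcg2, the breast cancer resistance protein that exports drugs, urate and porphyrins, had 8.58 FPKM in CD301b macrophages and 8.12 FPKM in F4/80-negative cells (adjusted p of 0.837, computed from the p in the authors' deposited table), and the scaled ratio of 0.976 lay on the other side of 1.

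The peroxisomal genes Abcd3 and Abcd2 were called higher. Abcd3 (NCBI gene 19299, chromosome 3, 121758904 to 121815302), which imports branched-chain fatty acids and bile acid intermediates, had 12.8 FPKM in CD301b macrophages and 7.20 FPKM in F4/80-negative cells, a ratio of 1.78 (1.64 scaled). Abcd2 (NCBI gene 26874, chromosome 15, 91145871 to 91192007), which imports very-long-chain fatty acids, had 3.67 FPKM in CD301b macrophages and 2.13 FPKM in F4/80-negative cells, a ratio of 1.72 (1.59 scaled). Their adjusted p-values, computed from the authors' deposited table, were 0.00182 for Abcd3 and 0.00624 for Abcd2. Abcd4, which releases vitamin B12 from lysosomes and not from peroxisomes, had 5.18 FPKM in CD301b macrophages and 3.57 FPKM in F4/80-negative cells and was not past the threshold (adjusted p of 0.175, computed from the p in the authors' deposited table).

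The mitochondrial genes Abcb6, Abcb8 and Abcb10 had the higher value in CD301b macrophages, and none of them was past the threshold. Abcb6, a porphyrin transporter, had 5.45 FPKM in CD301b macrophages and 3.76 FPKM in F4/80-negative cells. Abcb8, linked to iron export, had 4.70 FPKM in CD301b macrophages and 3.94 FPKM in F4/80-negative cells. Abcb10, linked to haem synthesis, had 3.36 FPKM in CD301b macrophages and 2.54 FPKM in F4/80-negative cells. For Abcb6 90.3% of the 50-base words also occur in the overlapping annotated gene Gm29253 on the same strand, so its value is uncertain. The lysosomal peptide transporter Abcb9 had 0.648 FPKM in CD301b macrophages and 0.437 FPKM in F4/80-negative cells and was not past the threshold.

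**Figure D5:**
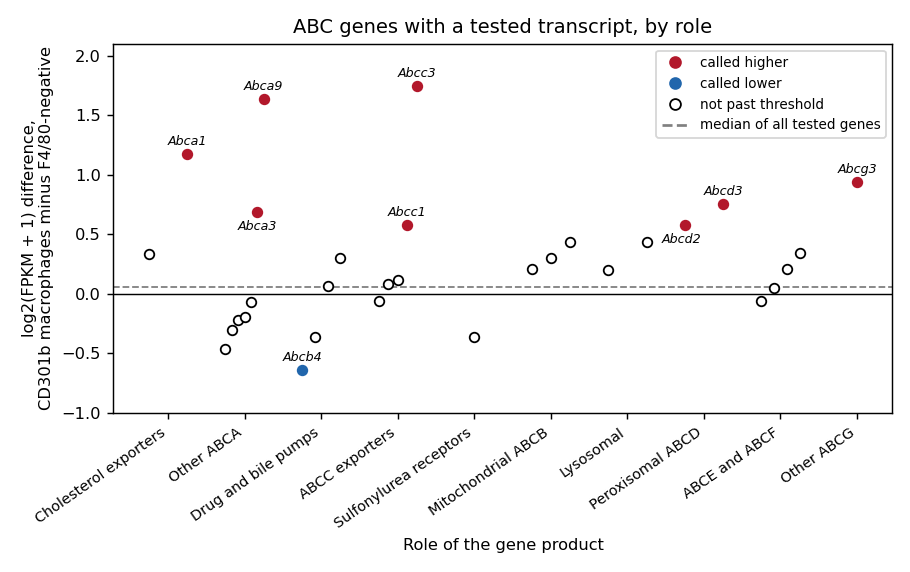
Difference in log2(FPKM + 1), CD301b macrophages minus F4/80-negative cells, for 31 of the 33 ABC genes with a tested transcript, by role, 1 value per gene with no error; red points are called higher, the blue point is called lower, open points are not past the threshold, and the dashed line is the median of all tested genes (0.05). Abcd2 and Abcd3 are red, and the 4 ABCE and ABCF genes are all open.

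The ABCE and ABCF genes, which encode no transporters, were abundant and none was called; their smallest unadjusted p was 0.0829, for Abcf3, in the authors' deposited table. Abce1, which splits ribosomes after termination, had 21.0 FPKM in CD301b macrophages and 18.1 FPKM in F4/80-negative cells. Abcf1, a factor of translation initiation, had 22.7 FPKM in CD301b macrophages and 23.7 FPKM in F4/80-negative cells. Abcf3 had 13.4 FPKM in CD301b macrophages and 10.4 FPKM in F4/80-negative cells, and Abcf2 had 20.4 FPKM in CD301b macrophages and 19.8 FPKM in F4/80-negative cells, with a scaled ratio of 0.956 on the other side of 1. The minor Abcf2 transcript NM_001190443 had 0.761 FPKM in CD301b macrophages and 2.60 FPKM in F4/80-negative cells, opposite to the main transcript, and was not past the threshold (adjusted p of 0.431, computed from the p in the authors' deposited table). The summed level of the 4 genes was 77.6 FPKM in CD301b macrophages and 71.9 FPKM in F4/80-negative cells, a ratio of 1.08.

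Abcg3 was the one further ABCG gene that was expressed. Abcg3 (NCBI gene 27405, chromosome 5, 104935057 to 104982811), a half-transporter gene of rodents related to Abcg2, had 19.1 FPKM in CD301b macrophages and 9.48 FPKM in F4/80-negative cells. The ratio was 2.02 (1.87 scaled), with the smallest adjusted p that can be computed from the authors' deposited table, and no 50-base word of its transcript occurs in another annotated gene. The sterol half-transporters Abcg5 and Abcg8 of liver and gut were under 0.02 FPKM in both populations, and Abcg4, of brain, had 0.108 FPKM in CD301b macrophages and 0.242 FPKM in F4/80-negative cells.

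The 17 members with no tested transcript reached at most 0.266 FPKM in CD301b macrophages and 0.327 FPKM in F4/80-negative cells. They were Abca4, Abca8b, Abca12 to Abca17, Abcb5, Abcb11, Abcc2, Abcc6, Abcc8, Abcc12, Abcg4, Abcg5 and Abcg8, among them the retinal Abca4 and the bile salt pump Abcb11. Of these, Abca14, Abca15, Abca16 and Abcb5 were listed at 0 in both populations, and a further 4 (Abcb11, Abcc6, Abcc12 and Abcg5) were listed at 0 in CD301b macrophages alone. Tap1 and Tap2, the ABC peptide transporters of MHC class I loading, whose symbols the choice of genes does not reach, were not past the threshold. Tap1 had 53.6 FPKM in CD301b macrophages and 57.4 FPKM in F4/80-negative cells, and Tap2 had 20.0 FPKM in CD301b macrophages and 22.3 FPKM in F4/80-negative cells.

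A further 6 ABC genes had an unadjusted p of 0.05 or less in the authors' deposited table without passing the adjustment. Abcb6 and Abcd4 had the higher value in CD301b macrophages, and Abca6, Abca7, Abcb1a and Abcc9 the lower. With 1 value per population and no replicate values, these cannot be examined further.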

How the data were processed

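Libraries were made with a TruSeq mRNA protocol, per the labels' protocols. TopHat2 2.0.2, Cuffdiff 2.0.2 and the build mm9 are named in the submitters' processing notes; for strand settings and the combining of libraries, the sources used here give nothing. The authors deposited FPKM per transcript and population and unadjusted p-values, per the file headers. The smallest Cuffdiff p-value among the values was 5e-05, and 847 transcripts had it. Benjamini-Hochberg adjustment over the 16921 tested transcripts gave the deposited call for every one of them. The table's loci overlapped RefSeq genes of GRCm38.p6 for 99.2% of the matched accessions (97.1% matched), so printed positions are RefSeq positions on GRCm38, counted from 1. Symbols turned into dates (56 transcripts) were restored by accession. The adjusted p of a gene is the smallest of its transcripts. No test across libraries was possible, and whether the deposited p-values reflect variation between animals is not stated. Members at 1 FPKM or more are named, except that a few genes are not reported here; these stay in the counts, sums and medians. Members and lists were chosen with earlier results of these data known. The calling step was run on simulated data in which changed genes had 1 tested transcript and a small p-value set in advance. That run checks the code only, and does not exercise the rule for genes with several tested transcripts. Python 3.11.15, pandas 2.3.3, numpy 2.4.6 and matplotlib 3.10.9 were used.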

Additional observations from a re-analysis of the deposited data

How the results depend on the processing

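The counts of 10 higher and 1 lower ABC genes were also obtained with a p-value per gene. This was the smallest transcript p multiplied by the number of tested transcripts, then adjusted over genes. Among the called genes only Abca3 had more than 1 tested transcript, so this setting, too, hardly tests the calls. Genes at 1 FPKM or more, protein-coding transcripts alone and median scaling also gave 10 and 1, but these settings keep the adjusted p-values as they are and so hardly test the calls. At an adjusted p of 0.01 the counts were 7 and 1, with Abca3 and Abcc1 among those no longer past it, and 7 sterol genes were called higher. The median log2 difference of tested ABC genes, 0.21, was 0.15 with median scaling, 0.34 with a pseudocount of 0.1 and 0.30 over genes at 1 FPKM or more; in the last, fewer genes entered. Among single genes, the ratio moved to the other side of 1 with median scaling for Abcf2 (0.956) and Abcg2 (0.976), and Abca3 was not past the threshold by its most abundant transcript (ratio 1.43). The ratio of Abca1, 2.28, was 2.11 with median scaling and 2.26 with a pseudocount of 1, and that of Abcb4, 0.406, was 0.641 with a pseudocount of 1. Depth is unknown, which limits what can be said of genes under 1 FPKM. No paired analysis was possible because the table holds 1 value per population, and leaving out a replicate could not be run for the same reason.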
